A study of Homo sapiens with 2 samples.

Results

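Replication-dependent histone genes were examined for open promoters in B2B cells. These were the protein-coding genes of GENCODE 44 on chromosomes 1 and 6 whose symbols begin with H1 (H1-1 to H1-6), H2AC, H2BC, H3C or H4C, and 68 of 20007 protein-coding genes met that rule. Chromosome 1 held 13 of them and chromosome 6 held 55. By family there were 6 H1, 17 H2A, 18 H2B, 13 H3 and 14 H4 genes. B2B is BEAS-2B, an immortalized and non-cancerous bronchial epithelial line, which was profiled by ATAC-seq without treatment in 2 biological replicates. In this assay a transposase, Tn5, cuts and tags DNA where chromatin is accessible, and regions with more tagged fragments than their surroundings are called as peaks. The authors called peaks on each replicate separately, so every value below is given per replicate, and with 1 condition no test between groups was possible. The rule for the members used their symbols and chromosomes, and no accessibility value entered it, though earlier results of these data were known when the members were chosen.

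Core histones H2A, H2B, H3 and H4 form the nucleosome, and the linker histone H1 binds the DNA between nucleosomes. The replication-dependent genes deliver these proteins in S phase. Their mRNAs carry no poly(A) tail and end in a conserved stem-loop that is bound by SLBP, and their transcription takes place in histone locus bodies organised by NPAT. Many H2A and H2B genes lie head to head, so that a short stretch of DNA serves both as a divergent promoter. Most of the genes lie in a large cluster on chromosome 6, with smaller groups on chromosome 1.

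Peaks on the standard chromosomes numbered 28735 in replicate 1 and 36162 in replicate 2. Fold enrichment is the number of fragments over the peak summit divided by the local background, with 1 added to each. The lists give no read totals, but the fragments over each summit could be recovered, and the weakest listed peaks had 16 fragments (replicate 1) and 13 (replicate 2). These minima hold at the lowest local background, and where the background was higher a promoter could hold more fragments and still be unlisted. An unlisted promoter is therefore one without a called peak, and its chromatin may still be accessible. Of the marker genes of the label, 0 of 9 airway epithelial genes had a promoter peak in both replicates, among them EPCAM, CDH1, KRT5 and TP63, and KRT8 had one in replicate 2. Of 6 mesenchymal genes 5 had one (COL1A1 did not), and of 4 genes of proliferating cells all had one, MKI67 and PCNA included. Over all protein-coding genes 51.0% had one in both replicates. Each gene was read at its canonical start alone, so a peak at another promoter of a marker gene was not counted. The epithelial label was thus not borne out by these promoter markers, and the cells are called B2B here.

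The stretches between the paired transcription start sites (TSSs) of 4 divergent H2A and H2B pairs show what such a promoter consists of. They are the pair with the strongest shared peak, the second strongest, the weakest of the shared peaks and a pair with no peak. The last of these, H2AC1 and H2BC1, are the testis members of their families. Capitals mark exact matches to TATAAA (a form of the TATA box), CCAAT (the CCAAT box) and ATTTGCAT (the octamer, bound by POU2F1) on either strand. The sequences were read from hg38 on the plus strand, from the TSS of the leftward gene to that of the rightward gene.
H2BC11 and H2AC11, chr6:27132795-27133043: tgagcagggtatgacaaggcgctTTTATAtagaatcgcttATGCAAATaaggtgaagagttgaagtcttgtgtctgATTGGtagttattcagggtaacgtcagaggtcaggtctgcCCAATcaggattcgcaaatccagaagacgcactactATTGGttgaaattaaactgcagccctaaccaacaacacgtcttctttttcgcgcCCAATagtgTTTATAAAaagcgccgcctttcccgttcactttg
H2AC25 and H2BC26, chr1:228457873-228458103: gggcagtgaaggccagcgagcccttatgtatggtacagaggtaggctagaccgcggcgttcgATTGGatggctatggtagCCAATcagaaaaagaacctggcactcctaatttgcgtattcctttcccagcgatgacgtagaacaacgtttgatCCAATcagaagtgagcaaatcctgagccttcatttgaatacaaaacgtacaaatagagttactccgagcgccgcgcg
H2AC7 and H2BC7, chr6:26199293-26199516: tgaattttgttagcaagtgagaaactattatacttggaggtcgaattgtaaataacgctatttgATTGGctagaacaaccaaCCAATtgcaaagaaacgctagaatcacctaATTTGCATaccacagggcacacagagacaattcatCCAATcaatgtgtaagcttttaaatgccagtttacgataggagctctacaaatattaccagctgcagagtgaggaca
H2AC1 and H2BC1, chr6:25726562-25726777: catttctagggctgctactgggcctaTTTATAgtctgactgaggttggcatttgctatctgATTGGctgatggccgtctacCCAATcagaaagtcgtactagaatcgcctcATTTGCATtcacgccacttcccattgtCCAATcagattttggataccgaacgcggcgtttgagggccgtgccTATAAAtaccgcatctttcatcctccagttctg

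The stretch of H2BC11 and H2AC11 held 3 matches to TATAAA (a pair of them overlapping on opposite strands), 4 to CCAAT and 1 to the octamer. That of H2AC25 and H2BC26 held 3 CCAAT matches and none of the other motifs. The pair H2AC1 and H2BC1 held 2 TATAAA, 3 CCAAT and 1 octamer match. The stretch of H2AC7 and H2BC7 held 3 CCAAT matches, 1 octamer match and no TATAAA match. Only these 4 pairs were set side by side, so whether these letters go with a shared peak was not tested.

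Of the 68 histone promoters, 47 had a peak within 500 bp of the canonical TSS in both replicates (69.1%, 95% Wilson interval 57.4 to 78.8). Across all protein-coding genes the share was 51.0%. Among all protein-coding genes whose promoter CpG count lay in the interquartile range of the histone genes (48 to 62.25 CpGs in the 1 kb around the TSS) it was 62.1%, which lies inside the interval of the members. In replicate 1 there were 47 histone promoters with a peak and in replicate 2 there were 57, a mean of 76.5% ± 10.4 (SD, n = 2). The 47 promoters rested on 36 distinct peaks in each replicate, because paired genes share theirs. A further 10 promoters had a peak in replicate 2 alone, 0 in replicate 1 alone, and 11 had none. All 68 genes are single-exon genes, and of the other single-exon protein-coding genes 18.8% had a promoter peak in both replicates. Where those genes had a CpG count in the same range, the share was 36.9% of 65.

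**Figure D1:**
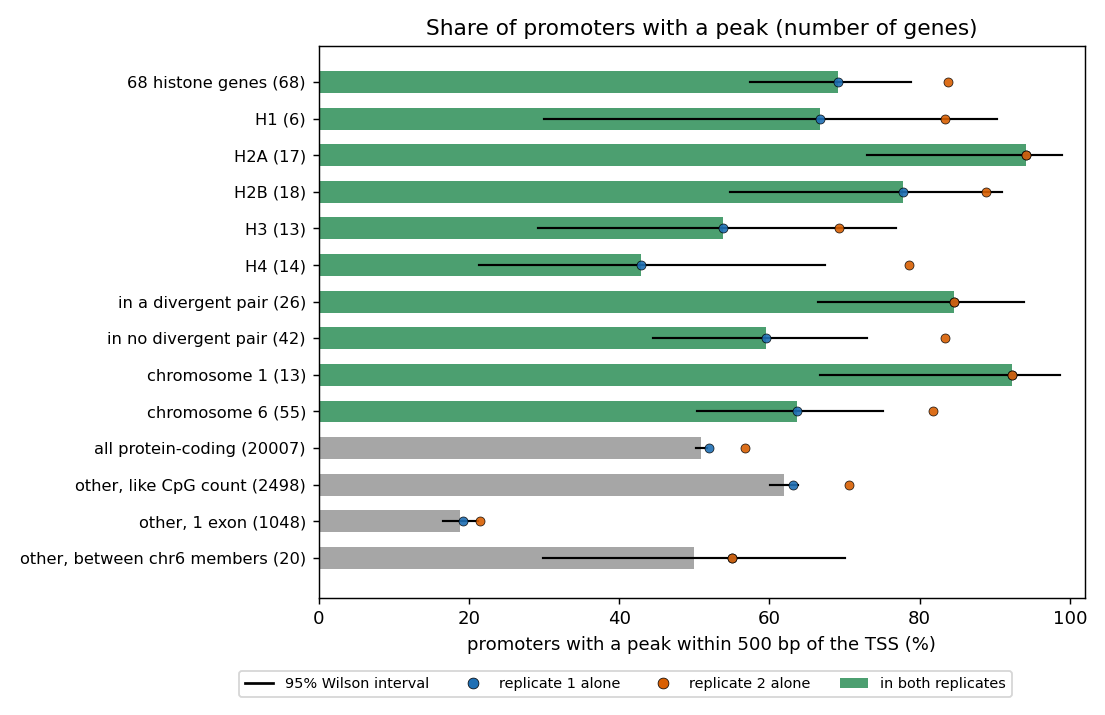
Share of promoters with a peak within 500 bp of the TSS, in percent, for the histone genes by family, arrangement and chromosome (green) and for other sets of protein-coding genes (grey), with the number of genes in brackets. Bars give the share in both replicates with its 95% Wilson interval and points each replicate alone; H4 moved most between replicates, from 6 genes of 14 in replicate 1 to 11 in replicate 2.

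The families differed in how many promoters were listed. H2A, the core histone that pairs with H2B, had a peak in both replicates at 16 of 17 genes. H2B had one at 14 of 18 genes, H3 at 7 of 13 and H4 at 6 of 14. The linker histone H1 had one at 4 of 6 genes. In replicate 2 alone the counts were 5 of 6 for H1, 16 of 17 for H2A, 16 of 18 for H2B, 9 of 13 for H3 and 11 of 14 for H4. The low count of H4 was thus a feature of replicate 1, where 5 further H4 promoters were not listed. No test of the family differences was made, because the genes share peaks and sequence and are not replicates.

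The listed promoters were spread unevenly over the groups of genes. On chromosome 1, 12 of 13 promoters had a peak in both replicates, and 52.0% of the other protein-coding genes of that chromosome did. Of these 12, 6 lie in windows that are repeated elsewhere in the genome over their whole length. On chromosome 6 the count was 35 of 55 (63.6%, 50.4 to 75.1), near the 56.7% of the other genes there. Of the chromosome 1 genes, 11 lie near 149.8 Mb, with a peak at 10, and 2 near 228.5 Mb, with a peak at both. The chromosome 6 cluster begins with H2AC1 and H2BC1 near 25.7 Mb, which had none. In the dense group between 26.02 and 26.29 Mb, 20 of 32 promoters had a peak in both replicates, 5 in replicate 2 alone and 7 in neither. The group near 27.1 Mb had 4 of 5. In the last group, between 27.8 and 27.9 Mb, 11 of 16 had a peak in both, the other 5 had one in replicate 2 alone, and no promoter was without a peak.

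**Figure D2:**
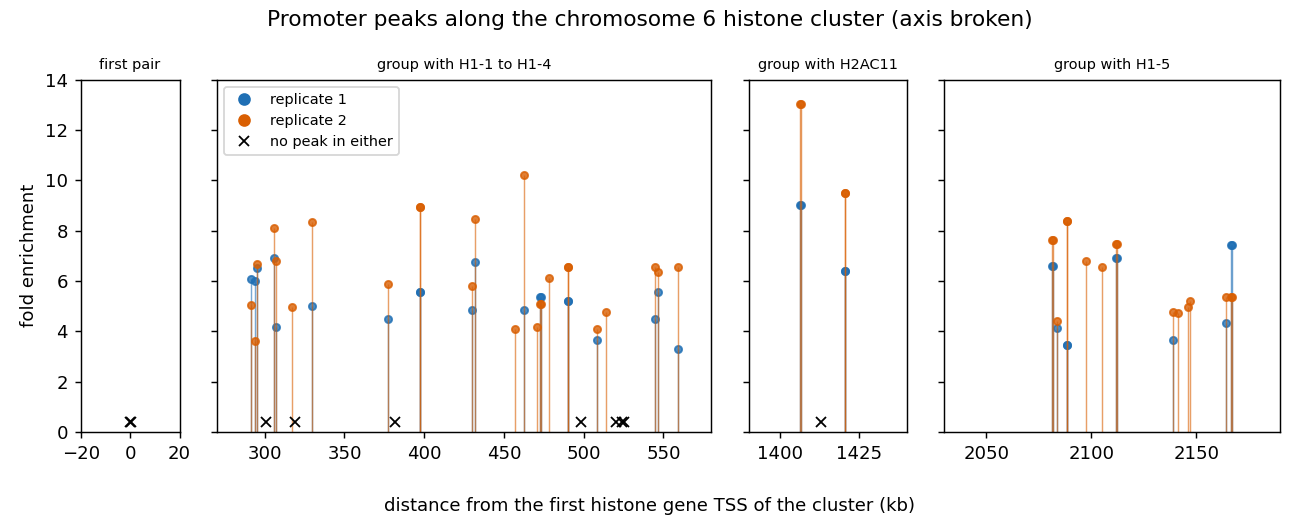
Fold enrichment of the promoter peak (vertical axis) of the 55 histone genes of chromosome 6 against the distance of the TSS from the first one of the cluster in kb (horizontal axis, broken between 4 groups). Points are replicates and crosses genes with no peak in either; the tallest points, 9.01 and 13.05, belong to H2BC11 and H2AC11, and crosses fall in all groups but the last.

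Where a peak was present it was low. The 47 histone promoters had median fold enrichments of 5.37 and 6.62 in replicates 1 and 2 (5.99 ± 0.88, SD, n = 2), against 8.14 and 9.74 for the 10147 other protein-coding promoters with a peak in both (8.94 ± 1.13). The histone medians exceeded 17.9% of the other promoters in replicate 1 and 19.9% in replicate 2. The difference between the medians had the same direction in both replicates. The median summit of the histone peaks held 31 and 34 fragments, against 47 and 46 at the other promoters. The local background was 4.77 and 4.64 fragments at the histone promoters and 4.77 and 3.41 at the others. The lowest background in the lists was 4.77 in replicate 1 and 3.41 in replicate 2. Both medians of replicate 1 thus stood at that floor, and their likeness there is not a measured equality. In replicate 2 the histone median was higher, and the median of the others was at the floor. Median peak widths were 324 and 533 bp, against 483 and 569 bp at the other promoters and 420.5 and 498.5 bp at those with a like CpG count, so against the latter the histone peaks were narrower in replicate 1 and wider in replicate 2. Over all distinct peaks in the histone windows, 43 and 51 in replicates 1 and 2, the median widths were 236 and 330 bp. That set also holds weaker second peaks and peaks of genes listed in replicate 2 alone. The other promoters were not counted in that way, so these widths cannot be set against theirs. In bulk samples, fewer cells with an open promoter and less opening per cell cannot be told apart. None of the 47 histone promoters was above 10-fold in both replicates, whereas 32.4% of the other promoters were.

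**Figure D3:**
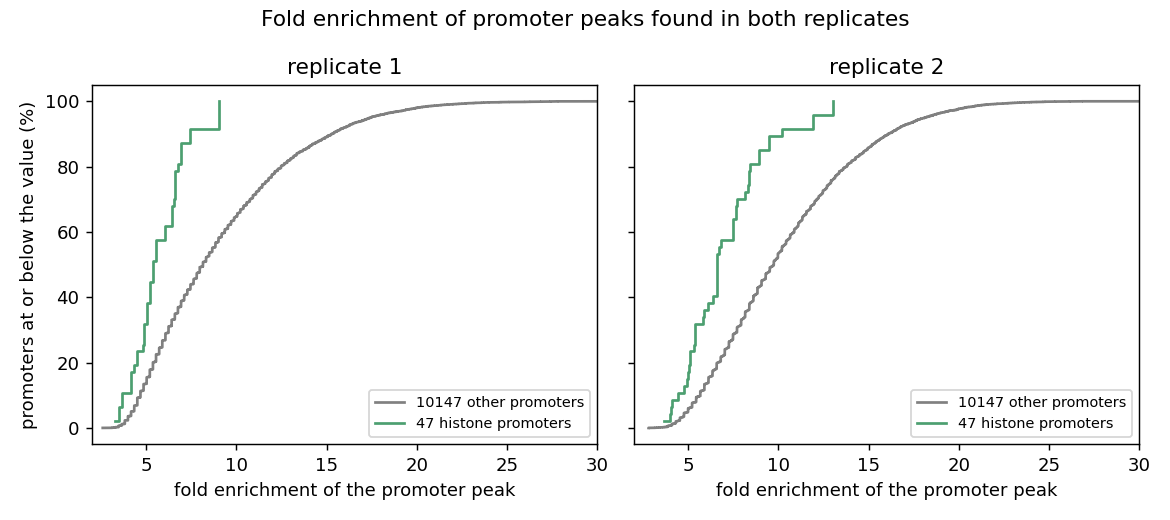
Percentage of promoters (vertical axis) at or below each fold enrichment (horizontal axis) in replicate 1 and replicate 2, for histone promoters and other protein-coding promoters with a peak in both replicates. The histone curve lies to the left of the other curve in both panels, with medians of 5.37 against 8.14 and 6.62 against 9.74; values above 30 are off the axis.

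Most other promoters with a peak in the same neighbourhood were higher than the median histone promoter there. Of the 20 other protein-coding genes between the chromosome 6 histone genes, 10 had a peak in both replicates, 2 in one and 8 in neither, and the 10 had median fold enrichments of 7.103 and 9.84 in replicates 1 and 2. Among these, ZNF322 and ZNF184, which encode zinc-finger proteins, had values of 10.6 and 12.9 and of 10.05 and 11.1. One gene of the 20, ENSG00000282988, starts at the TSS of H2AC7 and shares its peak, and without it the medians of the remaining 9 were 7.62 and 9.97. The 35 histone promoters of chromosome 6 with a peak in both had medians of 5.54 and 6.69. Of those 9 genes, 7 were above these medians in both replicates. ABT1, at 3.98 and 4.98, and BTN3A2, at 3.98 and 6.12, were below them in both.

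The strongest peak lay between H2BC11 and H2AC11, at 9.01-fold in replicate 1 and 13.05-fold in replicate 2 (11.03 ± 2.85). It held 51 and 93 fragments at its summit. The peak of H2AC25 with H2BC26 reached 9.01 and 11.9. Both peaks stood above the median of other promoters in each replicate, which no other histone peak did. The peak of H2BC12 and H2AC12 was at 6.41 and 9.49. Outside the pairs, the highest were H2BC5 at 6.76 and 8.45, H3C2 at 6.93 and 8.12, and H4C4 at 4.85 and 10.2. H2BC12, H2BC5 and H3C2 therefore had overlapping ranges, and H4C4 spread further between replicates than the gap between it and most other genes.

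At the low end, H1-3, a linker histone, was at 3.64 and 4.08. H2AC21 was at 4.16 and 4.01, H2AC16 at 3.64 and 4.76, H3C10 at 4.13 and 4.41, and H2AC18 at 4.864 and 3.9997. Each of these 5 genes is unpaired, and their ranges over the replicates overlap one another, except that H1-3 lay below H3C10. The order of the middle genes was not stable. The larger value of a gene exceeded the smaller by over 1.5-fold in 9 of the 47 histone promoters (19.1%), against 17.6% of the 6790 other promoters in the same range of mean fold enrichment. Replicate 2 gave the higher value in 37 of 47 histone promoters (78.7%) and in 71.2% of the others. The Spearman correlation between the replicates was 0.457 over the 47 histone promoters and 0.858 over the others, across promoters of which many share a peak, and over a narrower range for the histone genes.

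**Figure D4:**
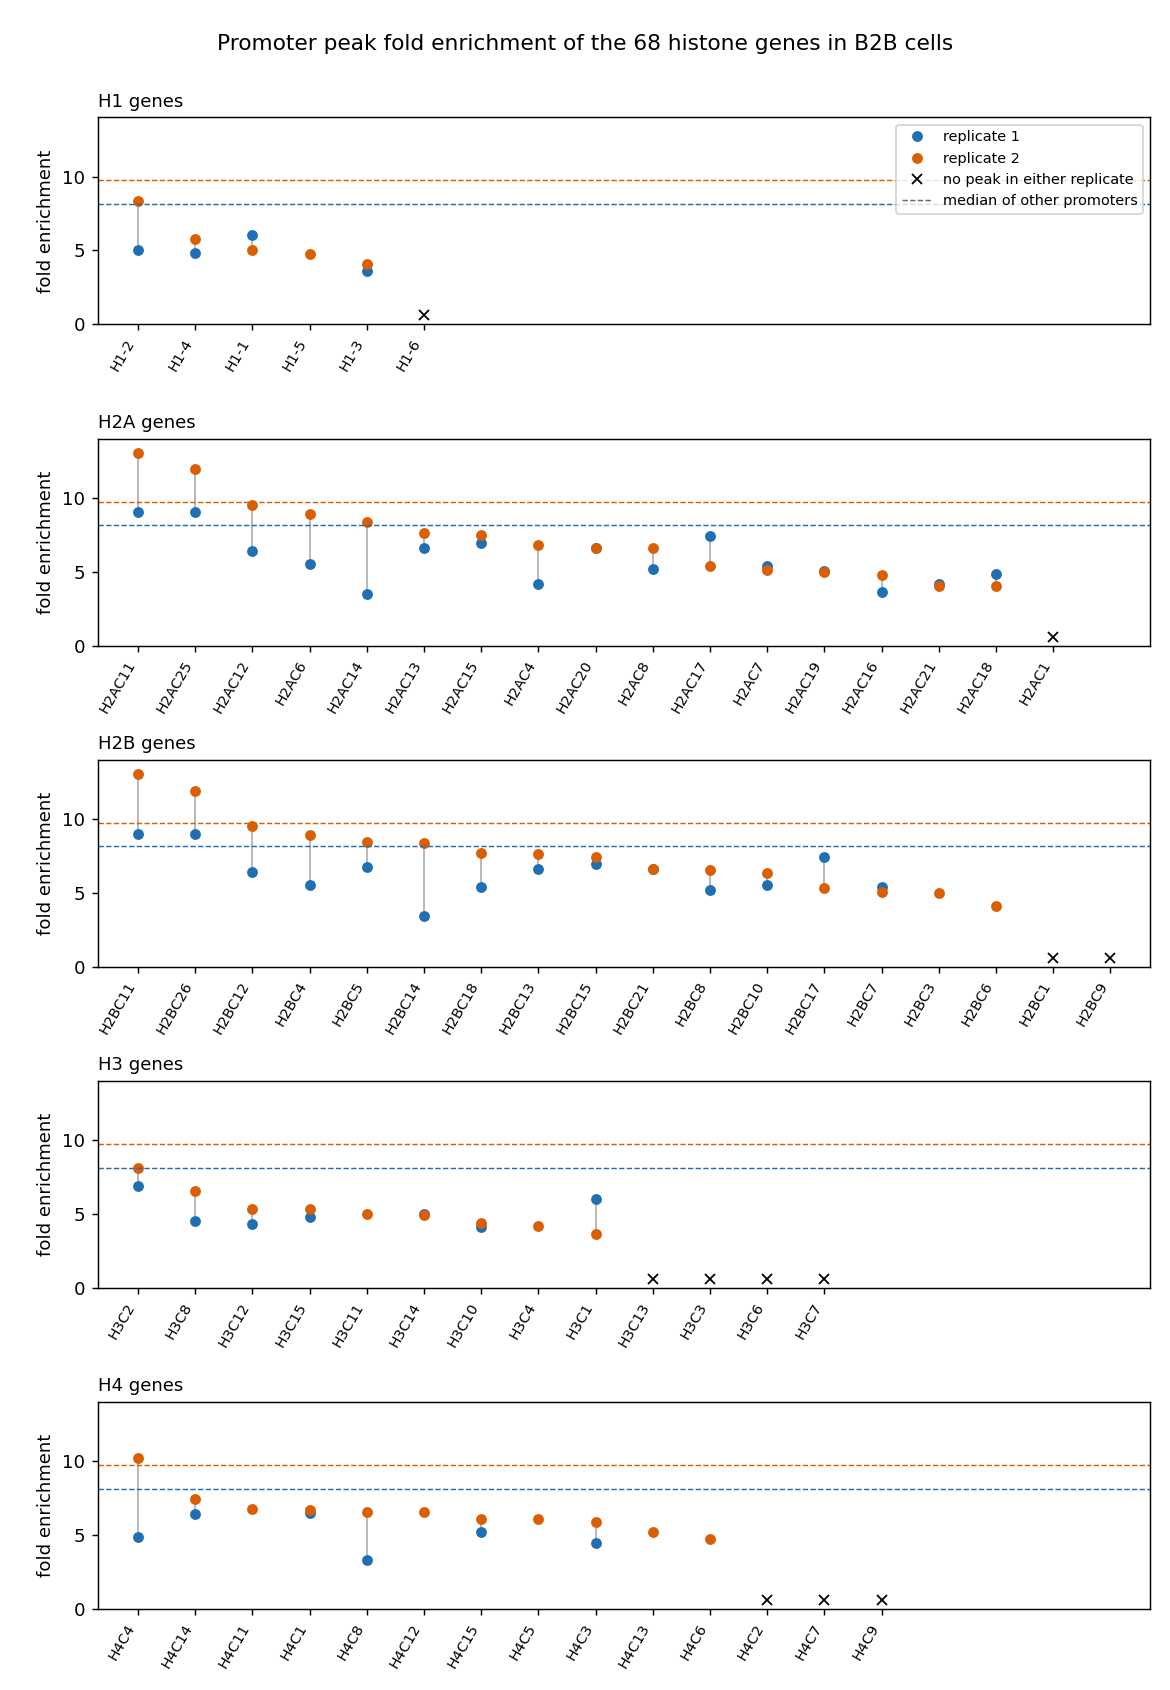
Fold enrichment of the promoter peak (vertical axis) for each of the 68 histone genes, in one panel per family and ordered by replicate 2. Points are replicates, joined where both have a peak, crosses are genes with no peak in either, and dashed lines are the medians of other promoters (8.14 in replicate 1 and 9.74 in replicate 2); of the histone genes, those of H2BC11 with H2AC11 and H2AC25 with H2BC26 lie above both lines.

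Values of the 10 promoters with a peak in replicate 2 alone ran from 4.08 to 6.80 there, and 1 of them, H4C11, was above the histone median of 6.62. The H4 genes H4C11, H4C12, H4C5, H4C13 and H4C6 were at 6.80, 6.57, 6.12, 5.21 and 4.76. H3C11 and H3C4 were at 4.98 and 4.18, H2BC3 and H2BC6 at 4.98 and 4.08, and the linker histone H1-5 at 4.75. Their summits held 17 to 29 fragments, and the median over all distinct histone peaks of replicate 2 was 29. The part of the shorter list of replicate 1 in their absence there was not tested. In replicate 1 the nearest peak to these 10 TSSs lay between 2065 and 9928 bp away.

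The 11 promoters with no peak in either replicate were H2AC1, H2BC1, H2BC9, H3C3, H3C6, H3C7, H3C13, H4C2, H4C7, H4C9 and H1-6. They include all 3 testis genes, H1-6, H2AC1 and H2BC1. The nearest peak to the TSS of H2AC1 lay 50581 bp away in replicate 1 and 50505 bp away in replicate 2. For H1-6, the testis linker histone, it lay 3918 and 3940 bp away. H4C2 had a peak 775 bp from its TSS in replicate 1 and none within 4513 bp in replicate 2, and H3C6 had one 1000 bp away in replicate 2. H4C9 lies in the same group as the strongest peak of the family, and its nearest peaks, 5937 and 6008 bp away, were that peak.

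A somatic and the testis linker histone gene, and the unpaired H4 gene with the highest value in replicate 2, are shown by the 250 bases before their TSS. These were picked after their values were seen. All lie on the minus strand of chromosome 6 and are written 5′ to 3′ along the gene, with the capitals marking the same motifs.
H1-2, chr6:26056471-26056720: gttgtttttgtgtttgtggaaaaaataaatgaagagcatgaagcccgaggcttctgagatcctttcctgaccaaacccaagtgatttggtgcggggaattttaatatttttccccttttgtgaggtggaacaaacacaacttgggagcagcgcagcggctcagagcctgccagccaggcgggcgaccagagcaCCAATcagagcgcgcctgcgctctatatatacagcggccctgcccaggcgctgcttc
H1-6, chr6:26108136-26108385: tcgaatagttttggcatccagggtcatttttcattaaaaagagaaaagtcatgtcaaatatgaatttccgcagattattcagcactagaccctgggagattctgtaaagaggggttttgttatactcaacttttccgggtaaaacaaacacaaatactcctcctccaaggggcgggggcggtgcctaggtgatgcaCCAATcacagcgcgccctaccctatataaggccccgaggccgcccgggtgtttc
H4C4, chr6:26189113-26189362: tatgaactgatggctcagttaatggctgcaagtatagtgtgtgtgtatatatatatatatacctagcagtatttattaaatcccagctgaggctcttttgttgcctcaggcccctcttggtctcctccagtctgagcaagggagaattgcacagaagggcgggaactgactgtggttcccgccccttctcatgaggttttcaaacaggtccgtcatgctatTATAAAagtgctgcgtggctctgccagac

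H1-2 had a peak at 5.02 and 8.33 and H1-6 had none, and each stretch held 1 CCAAT match and no TATAAA or octamer match. Only exact letters were matched, so other forms of a TATA box, such as the tatata near the TSS in both stretches, were not counted. The H1-2 stretch held 11 CpGs and that of H1-6 held 10. In the 1 kb around the TSS the counts differed more, with 49 for H1-2 and 31 for H1-6, the lowest of the 68 genes. H4C4 had 1 TATAAA match, no CCAAT match and 4 CpGs.

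Divergent pairs were defined as genes on opposite strands, head to head, with TSSs at most 1000 bp apart. There were 13, of which 12 were an H2A with an H2B gene, 194 to 251 bp apart, and 1 was H3C7 with H2BC9, 979 bp apart. In both replicates 11 of 13 shared a peak (84.6%, 57.8 to 95.7), and across all protein-coding divergent pairs 81.3% of 965 did. For the 12 pairs of H2A and H2B the count was 11, against 88.3% of 343 other pairs 150 to 350 bp apart. The share was thus close to that of other pairs at the same spacing. The pairs that did not share one were H2AC1 with H2BC1 and H3C7 with H2BC9, and these had no peak at either gene.

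In replicate 2 the strongest shared peak covered both TSSs in 11 of 11 pairs, and in replicate 1 in 7 of 11 (63.6%). Among other protein-coding pairs with a shared peak, both TSSs were covered in 73.0% in replicate 1 and 80.1% in replicate 2. The summit of the histone pairs lay between the TSSs in 8 pairs in replicate 1 (72.7%, against 75.5% of other pairs) and in 9 in replicate 2 (81.8% against 72.3%). In replicate 1 the peak of H2AC14 and H2BC14 (3.47-fold) reached neither TSS, and in replicate 2 the pair had a peak over both at 8.38-fold. The peaks of H2BC8 with H2AC8 were at 5.20 and 6.57, and in replicate 1 the stronger of 2 shared peaks lay downstream of the H2A start. Pairs near the middle were H2BC21 with H2AC20 at 6.58 and 6.62, H2AC15 with H2BC15 at 6.93 and 7.46, and H2BC4 with H2AC6 at 5.54 and 8.92. The range of H2BC4 with H2AC6 spanned those of the other pairs just named, so its place among them could not be read. H2BC13 with H2AC13 was at 6.58 and 7.62, and H2AC17 with H2BC17 was at 7.43 and 5.35, the one pair besides H2AC7 with H2BC7 that was lower in replicate 2. H2AC7 with H2BC7 was the weakest pair by mean, at 5.37 and 5.08.

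**Figure D5:**
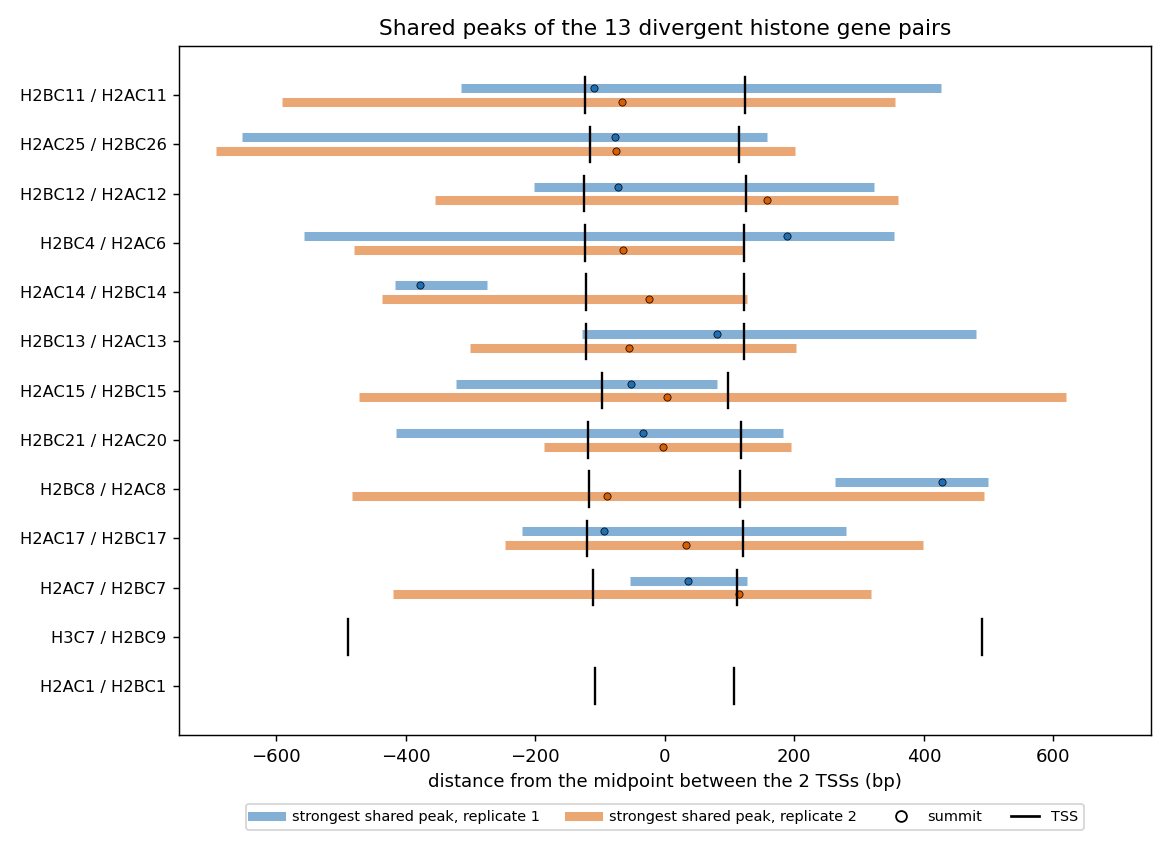
Strongest shared peak of each of the 13 divergent histone gene pairs in both replicates, as a bar against the distance from the midpoint between the TSSs in bp (horizontal axis), with points at summits and black lines at TSSs, ordered by fold enrichment in replicate 2. Peaks of replicate 2 span both TSSs in 11 pairs, and the lowest 2 rows have no peak.

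Paired genes were more often listed than unpaired ones, and higher. Of the 26 genes in a divergent pair 22 had a peak in both replicates, with median fold enrichments of 6.58 and 7.62 (7.102 ± 0.73). These 22 are the genes of the 11 pairs with a shared peak, so each such peak counts for both genes. Of the 42 others, 25 had one in both and 10 in replicate 2 alone, with medians of 4.86 and 5.89 (5.38 ± 0.73). In replicate 2 alone 22 of 26 paired and 35 of 42 unpaired genes had a peak, so the gap in counts came from replicate 1. The median widths were 527 and 716 bp for paired and 236 and 315 bp for unpaired genes. The unpaired H2A and H2B genes, 10 in all, had a peak in both replicates at 8, with medians of 4.96 and 5.67, near those of the other unpaired genes. The medians of shared peaks, 6.58 and 7.62, were below the 9.18 and 10.6 of other protein-coding divergent pairs.

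Peak summits lay mostly upstream of the start. In replicate 1 the summit was upstream of the TSS for 39 of 47 histone promoters (83.0%, against 76.7% of other promoters) and in replicate 2 for 40 of 57 (70.2% against 74.2%). The direction of the difference from other promoters thus changed between the replicates. A summit between the TSSs of a divergent pair is upstream of both genes and counts for each. For the histone genes in no divergent pair the counts were 20 of 25 (80%) in replicate 1 and 20 of 35 (57.1%) in replicate 2. The median summit was 53 bp upstream in replicate 1 and 63 bp in replicate 2, against 72 and 71 bp. The strongest peak covered the TSS itself in 35 of 47 histone promoters in replicate 1 (74.5%, against 84.9% of other promoters). In replicate 2 it did so in 52 of 57 (91.2% against 85.8%).

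The sequences of the histone promoters had features in common that the choice of genes did not use. All 68 genes had the 16-base histone stem-loop within 150 bp after the coding sequence, 26 to 71 bp beyond its end, and 74 of 20007 protein-coding genes did in all. Of the other 6, H2AX was at 9.18 and 11.6-fold, BTBD10 at 9.53 and 13.6, and H4C16, an H4 gene outside the clusters, at 5.18 and 5.07. The others, H3-4, H3-7 and GPR148, had no promoter peak in either replicate. The transcribed leader before the start codon was 12 to 132 bp long (median 37). Motifs were searched as exact letters on both strands from 250 bp before to 50 bp after the TSS, so other forms of them were not counted. TATAAA was present in 45 of 68 histone promoters and in 9.71% of all protein-coding promoters. It began 20 to 35 bp before the TSS, on the strand of the gene, in 38, with a median of 31 bp.

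CCAAT was found in 59 of 68 histone promoters against 36.1% of all promoters. All H1, H2A, H2B and H3 promoters held it, and 5 of 14 H4 promoters did. Of the 17 H2A promoters, 17 held it at 2 or more places, and 1 of 14 H4 promoters did. The octamer ATTTGCAT occurred in 12 of 17 H2A and 14 of 18 H2B promoters and in 0 of the other 33, against 1.61% of all promoters. The windows of paired genes overlap, so the 26 matches fall on 17 distinct sites. In H2B promoters the octamer began 45 to 49 bp before the TSS in 8 and 104 to 149 bp before it in 6. In H2A promoters it began 98 to 209 bp before the TSS, with a median of 194.5 bp. The AP-1 motif, TGACTCA or TGAGTCA, was in 0 of 68 and in 3.57% of all promoters, and its absence says only that these letters are not in this window.

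The same motifs were counted in promoters with and without a peak in both replicates, with no test. TATAAA was present in 32 of the 47 promoters with a peak in both replicates and in 13 of the other 21. CCAAT was in 43 of 47 and 16 of 21, and the octamer in 21 of 47 and 5 of 21. Of the 26 promoters with the octamer 21 had a peak in both replicates, and of the 42 without it 26 did. Since the octamer was seen only in H2A and H2B promoters, it could not be told apart from family and pairing. The median CpG count within 500 bp of the TSS was 58 for the promoters with a peak in both and 51 for the others, and 66 over all protein-coding genes. Across the 47 promoters CpG count and fold enrichment had a Spearman correlation of 0.355 (replicate 1) and 0.179 (replicate 2), a description only.

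Near-identical copies limit what can be said of single genes on chromosome 1. The 1 kb windows around H4C14 and H4C15 had 0 mismatches in 1001 aligned bases, and those of H2AC18 and H2AC19 (1000 bases) and of H3C14 and H3C15 (997 bases) also had 0. All 50-base stretches of these 6 windows recur elsewhere in the genome, so reads of either copy cannot be told apart, and how such reads were placed is not given in the sources used here. The copies had similar values. H4C14 was at 6.41 and 7.48 and H4C15 at 5.20 and 6.12. H3C14 was at 5.02 and 4.93 and H3C15 at 4.79 and 5.33, while H2AC19 was at 5.05 and 4.99, beside the values of H2AC18 given above. The summits of the H3C14 peak in replicate 1 and of the H3C15 peaks in both replicates lay over 500 bp upstream of the TSS. H2BC18, with 59.9% of its stretches repeated, was at 5.37 and 7.70, and H3C13, with 72.9% repeated, had no peak. Over both chromosomes the histone genes with under 10% repeated stretches had a peak in both replicates at 29 of 47 (61.7%), near the share of genes with a like CpG count, and those with more at 18 of 21. The values of H4C11 and H4C12, each with 43.3% repeated stretches, carry the same limit.

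Regions open in both replicates were also counted over the clusters. The chromosome 6 cluster, 2188 kb long with 10 kb added at each end, held 57 such regions, or 26.1 per Mb, against 8.21 per Mb over the genome. The cluster was drawn around histone TSSs, which lie at 25.1 per Mb in it. Its density and that of the genome are therefore of unlike stretches. Of the 57 regions 26 lay at a histone TSS, 9 at the TSS of another protein-coding gene and 22 at neither. The chromosome 1 group near 149.8 Mb held 10 regions in 96.1 kb, and all 10 lay at histone TSSs. The pair near 228.5 Mb held 1, the shared peak of H2AC25 and H2BC26.

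Genes that regulate or handle histones outside the clusters had higher median values than the histone genes where a peak was present. Of 9 genes of the histone locus body and of histone mRNA processing, 9 had a promoter peak in both replicates, with a median of 12.5 in replicate 1 and 12.1 in replicate 2 (12.3 ± 0.24). Over all protein-coding genes 51.0% had a peak in both. Among them NPAT was at 15.1 and 12.1, SLBP at 8.14 and 10.03, and HINFP, which binds H4 promoters, at 17.5 and 21.2. POU2F1, the octamer-binding factor, was at 12.5 and 13.6, and LSM11, of the U7 particle that processes histone mRNA ends, at 15.7 and 14.6. The lowest by mean were LSM10, at 7.62 and 7.70, and ZNF473, at 7.28 and 9.06. Both were below the medians of the other protein-coding promoters (8.14 and 9.74) in each replicate. Of 8 histone chaperone genes 6 had a peak in both (12.2 ± 0.18), CHAF1B had one in replicate 2 alone and HIRA had none. These lists were small, and no test was made of them.

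Of 11 genes of the histone variant list, which also holds the outlying H4 gene H4C16, 9 had a promoter peak in both replicates, with medians of 8.49 and 9.88 (9.18 ± 0.98). The share over all protein-coding genes was 51.0%. H3-3A and H3-3B, which encode the replacement histone H3.3, were at 10.9 and 9.92 and at 9.58 and 9.88. CENPA, the centromeric H3, was at 11.6 and 13.4. MACROH2A2 had a peak in replicate 2 alone, and the linker variant H1-10 had none. The replication-dependent genes with a peak in both had medians of 5.37 and 6.62, below those of the variant genes in each replicate, and 8 of the 9 variant genes were above both of these medians. The exception was H4C16, at 5.18 and 5.07.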

How the data were processed

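Peak lists of 2 ATAC-seq replicates of untreated B2B cells were used, and no other condition was analysed here. Per the study's methods and the submitters' processing notes, the authors aligned the reads to hg38 (Bowtie2 2.4.4), took out duplicates with code of their own, normalised samples by CPM with SAMtools 1.13 and ran MACS2 2.2.7.1 on each replicate. Whether that scaling came before the peak calls deposited here is not given in the sources used here, so the recovered pileups may be of normalised samples. The read length and any shift of Tn5 cut sites are not given in the sources used here. The deposited fold enrichment is a linear ratio of summit pileup to local background, each with 1 added. The deposited lists also give the −log10 p and −log10 q of each peak, and a score derived from the q value, which was left aside.

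Peaks of the autosomes and sex chromosomes were overlapped (at least 1 bp) with the 500 bp on either side of the canonical TSS in GENCODE 44. Where more than 1 gene held a symbol, only the first gene listed was kept. The strongest peak in a window gave the value of a gene. Whole pileups were recovered from the fold enrichment together with the −log10 p (tolerance 0.01). Overlap, pileup and pair finding were tested on simulated data. Sequences, CpG counts and 50-base repeats were taken from the hg38 sequence. The 95% Wilson intervals reflect counting error alone. The labels call the samples rep1 and rep2, and the study's methods speak of biological replicates.

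The genes named with values were the 5 highest and 5 lowest by mean, those with a peak in 1 replicate, the strongest pairs, those on chromosome 1 and the testis genes, with others added after their values were seen. Members and lists were chosen with earlier results of these data known. One gene of the histone variant list is not reported here. Alternatives were a stricter limit on −log10 q (5), lists cut to the same length by strength, windows of 250 and 1000 bp, summits in place of peaks, all annotated TSSs, other pair definitions and each replicate alone. Scripts ran in Python 3.11.15 and used pandas 2.3.3, numpy 2.4.6, matplotlib 3.10.9 and scipy 1.17.1.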

Additional observations from a re-analysis of the deposited data

How the results depend on the processing

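Of 28 values recomputed under the alternatives listed, 27 kept within 1.5 times of the reported count or within the spread between replicates of the reported median. From 47 of 68 genes or 11 of 13 pairs a count could pass that limit only by falling. The median of replicate 1 alone, over the same 47 promoters, lay within that spread by construction. Such outcomes were fixed in advance and say nothing on stability. The exception was the requirement that 1 peak cover both TSSs, which left 7 of 13 divergent pairs, and 57.6% of all protein-coding pairs. With only genes that had under 10% of 50-base stretches repeated, an alternative chosen after seeing the data, 29 of 47 promoters had a peak in both replicates and 5 of 7 pairs shared one, which are smaller sets by construction. With replicate 1 or replicate 2 left out, the members with a peak numbered 47 to 57, the pairs stayed at 11 and the median fold enrichment was 5.37 to 6.57. No paired analysis was possible because all samples belong to 1 group. H4 depends most on the replicate, with 6 of 14 promoters in replicate 1 and 11 in replicate 2. The lists hold peaks only, so a level under the lowest listed pileup could not be measured, and 2 replicates give a coarse SD.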
